A study of Mus musculus with 12 samples.

Results

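A set of 9 genes that mark bile duct cells (cholangiocytes) and progenitor cells of the liver was followed through the livers of 12 mice: Krt7, Krt19, Krt8, Krt18, Epcam, Sox9, Cftr, Cd24a and Muc1. They were chosen by name, as known markers, with earlier results of these data known. All 9 were present among the 22537 gene symbols of the count table, and 8 had enough counts to be tested among 13968 genes. Cftr did not pass the filter on low counts, and its values are given as a description.

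Poly-A RNA was sequenced from the liver of female C57BL/6 mice at 6 months of age that had been fed a high-fat diet for 13 weeks, with 1 library per mouse. The 4 groups of 3 were AHR KO and its control AHR Flox, and ARNT KO and its control ARNT Flox. All mice, controls included, were on the diet, so no comparison shows what the diet did. AHR is the aryl hydrocarbon receptor, a transcription factor activated by ligands, and ARNT is the protein it pairs with to bind DNA. The hypoxia-inducible factors use ARNT as their partner too. The title of the series speaks of hepatic loss of each protein. The sources used here do not give the Cre line, the cells in which it acts or the deleted part of each gene.

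Cholangiocytes line the bile ducts and make up a small share of liver cells. They carry the keratin pair KRT7 and KRT19 in addition to KRT8 and KRT18, whereas hepatocytes build their filaments from KRT8 and KRT18 alone. When the liver is injured, small duct-like cells that express EPCAM, SOX9 and the duct keratins can appear around the portal tracts, a change called the ductular reaction. In bulk liver RNA, a change in the number of such cells and a change in RNA per cell cannot be told apart.

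Total counts ran from 23585909 to 33255004 per library. Values are in CPM, counts scaled with TMM to a common library total, and 3 counts corresponded to 0.0861 to 0.126 CPM, a limit that covers counting error only. Arnt itself held 25.2, 23.9 and 19.0 CPM in ARNT KO, against 47.8, 52.5 and 50.3 CPM in ARNT Flox. Ahr held 84.4, 94.8 and 80.3 CPM in the libraries labelled AHR KO, against 53.9, 78.8 and 72.4 CPM in AHR Flox. A whole-gene count cannot check the AHR KO label, because the deleted part is not stated. One library stood apart from the rest: ARNT KO replicate 3 scored 65.3 on the first principal component of log2 CPM, which held 43.0% of the variance, against −30.9 to 30.3 for the other 11. Its TMM factor was 1.19, against 0.942 to 1.06 in the others. The ARNT KO changes of the tested markers and the list medians are therefore given with and without it.

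None of the 8 tested markers passed the test between AHR KO and AHR Flox, or between ARNT KO and ARNT Flox. In AHR KO, the 95% interval of the log2 change ran from −1.25 to 1.11 for Krt7 and −1.33 to 0.91 for Krt19. It ran from −0.98 to 1.23 for Epcam, −0.81 to 1.11 for Cd24a and −0.84 to 1.69 for Muc1. A 2-fold change was thus not excluded for these markers, whereas it was for Krt8, Krt18 and Sox9. All 9 markers had their highest value in ARNT KO replicate 3, at 1.61 to 7.81 times the median of the other 11 libraries. Krt8 and Krt18 had the smallest ratios, and the other 7 had larger ones. Without that library, 7 of the 8 log2 changes in ARNT KO turned from positive to negative, and none passed the test in either fit.

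**Figure D1:**
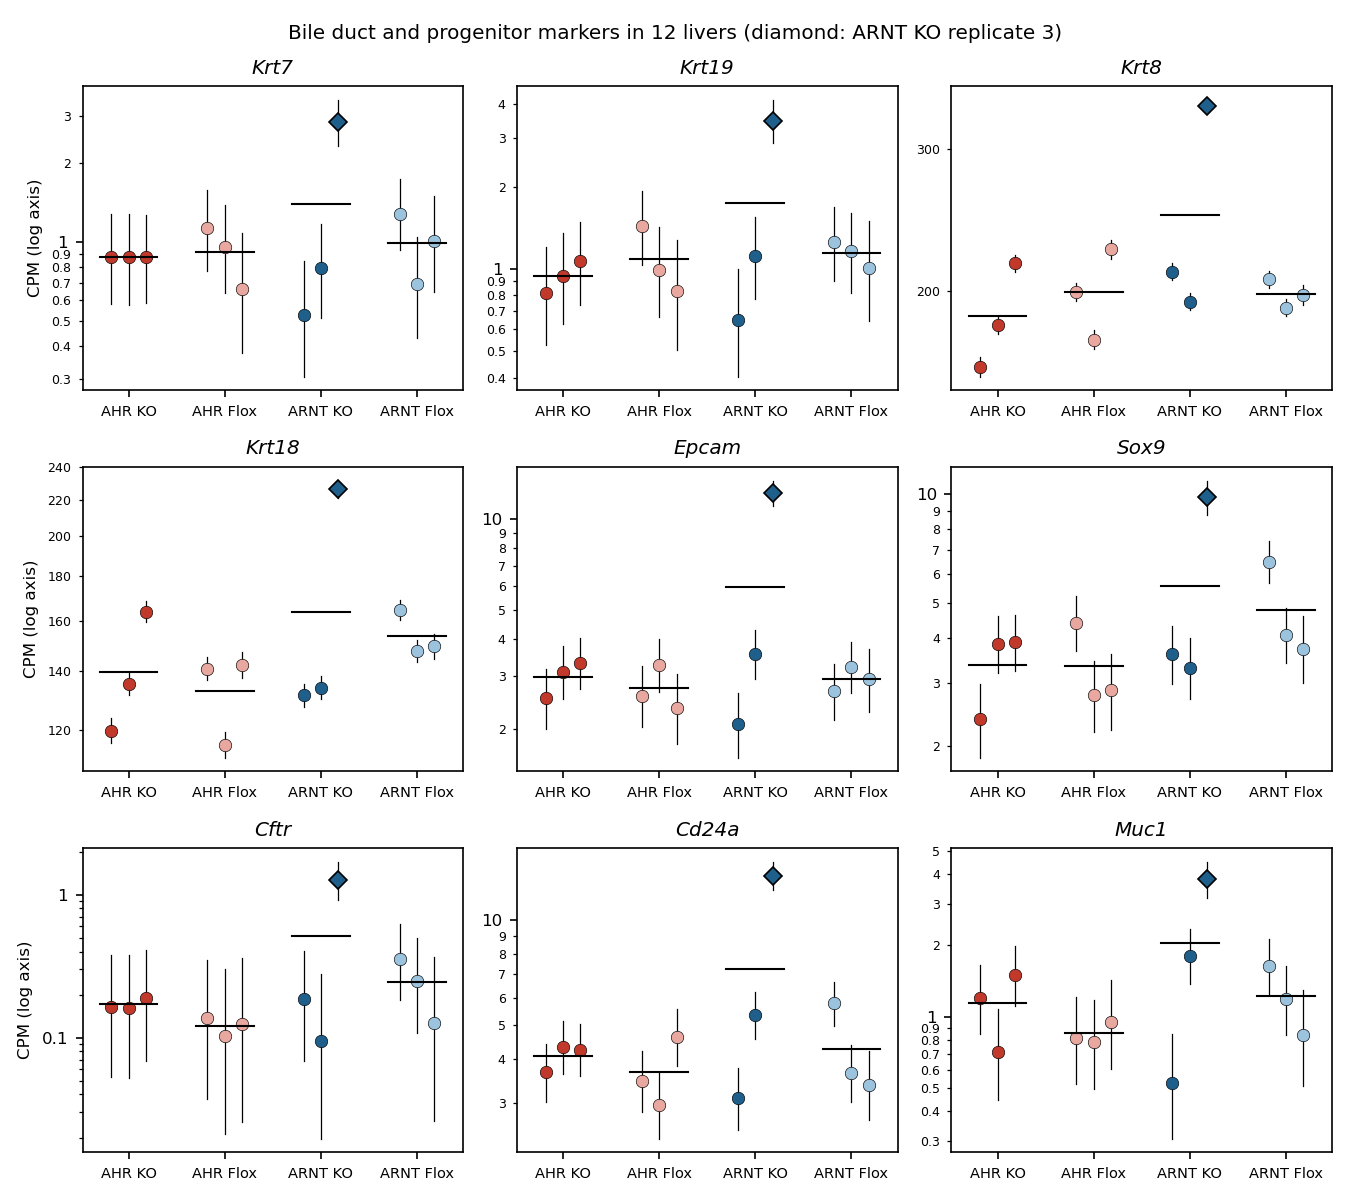
CPM of the 9 markers in each library (log axis), by group, with the exact Poisson interval of the count as a thin line and the group mean as a bar. The diamond is ARNT KO replicate 3, which is the highest of the 12 libraries in every panel.

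Krt7 and Krt19 encode the type II and type I keratins that form the duct-specific pair. Krt7 lies on chromosome 15 (101412403 to 101427806, plus strand, mm10) and Krt19 on chromosome 11 (100140810 to 100145926, minus strand). Krt7 was found at 0.878, 0.874 and 0.878 CPM in AHR KO, against 1.12, 0.957 and 0.663 CPM in AHR Flox. In the other line it was found at 0.528, 0.794 and 2.84 CPM in ARNT KO, against 1.28, 0.689 and 1.01 CPM in ARNT Flox. The groups overlapped in both lines, and the value of 2.84 CPM belonged to replicate 3. Krt7 was thus measured from only 16 to 43 counts in the 11 other libraries and 99 in ARNT KO replicate 3. Krt19 was found at 0.813, 0.938 and 1.07 CPM in AHR KO, against 1.43, 0.991 and 0.828 CPM in AHR Flox. The ARNT KO libraries held 0.652, 1.11 and 3.47 CPM, against 1.25, 1.16 and 1.01 CPM in ARNT Flox. As for Krt7, ARNT KO replicate 1 was the lowest of all 12 libraries and ARNT KO replicate 3 the highest.

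The log2 change of Krt7 was −0.07 ± 0.54 (SE) in AHR KO (edgeR adjusted p = 0.979) and 0.49 ± 0.52 in ARNT KO (adjusted p = 0.994). That of Krt19 was −0.21 ± 0.51 in AHR KO (edgeR adjusted p = 0.917) and 0.62 ± 0.49 in ARNT KO (adjusted p = 0.965). Without ARNT KO replicate 3, the ARNT KO changes were −0.58 ± 0.33 for Krt7 (edgeR adjusted p = 0.401) and −0.37 ± 0.30 for Krt19 (adjusted p = 0.577). The 95% interval for Krt7 in ARNT KO ran from −0.64 to 1.62 with all libraries and from −1.30 to 0.13 without that one. A 2-fold rise lay within the first interval and a 2-fold fall within the second. The first fit thus did not exclude such a rise of Krt7, nor the second such a fall.

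Krt8 and Krt18 encode the simple-epithelium pair that hepatocytes and cholangiocytes share, and they neighbour each other on chromosome 15: Krt8 at 101996711 to 102004342 on the minus strand and Krt18 at 102028216 to 102032026 on the plus strand. Krt8 was found at 161, 182 and 216 CPM in AHR KO, against 199, 174 and 225 CPM in AHR Flox. In ARNT KO it was found at 211, 194 and 339 CPM, against 207, 191 and 198 CPM in ARNT Flox. Apart from the library at 339 CPM, the ARNT KO values lay among those of ARNT Flox or just above them. Krt18 was found at 119.8, 136 and 164 CPM in AHR KO, against 141, 115 and 142 CPM in AHR Flox. The ARNT KO values were 131, 134 and 226 CPM, against 164, 148 and 149.6 CPM in ARNT Flox. Replicates 1 and 2 of ARNT KO were below all 3 ARNT Flox libraries, and replicate 3 was above them.

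The log2 change of Krt8 was −0.10 ± 0.19 in AHR KO (edgeR adjusted p = 0.893) and 0.32 ± 0.19 in ARNT KO (adjusted p = 0.910). It was 0.03 ± 0.13 in ARNT KO without replicate 3 (edgeR adjusted p = 0.933). That of Krt18 was 0.07 ± 0.20 in AHR KO (edgeR adjusted p = 0.927) and 0.09 ± 0.20 in ARNT KO (adjusted p = 1.00), or −0.21 ± 0.13 without replicate 3 (adjusted p = 0.458). These were the most deeply counted members, with 95% intervals in AHR KO of −0.52 to 0.32 for Krt8 and −0.36 to 0.50 for Krt18. Of the stretches of 50 bases in Krt8 transcripts, 26.9% also occur in its pseudogene Krt8-ps, and the share was 0.720% for Krt18. These copies are not among the symbols of the table, and how reads matching both were counted is not stated, so the level of Krt8 is uncertain to that extent. A long noncoding RNA, Gm36026, overlaps exons of Krt8 on the other strand, and without a stated strand setting its reads cannot be told apart from those of Krt8.

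Because all members had their highest value in the same library, their promoters were read where RefSeq (GRCm38.p6, the patch release of mm10) gave one. That was so for 6 of 9: Krt7, Krt8, Krt18, Epcam, Cftr and Muc1. Each window holds 250 bases before and 50 bases from the annotated start, and the 3 keratin genes of chromosome 15 and Epcam are shown on the strand of the gene. Capitals mark GCGTG (a core bound by AHR with ARNT) and ACGTG (a core bound by hypoxia-inducible factors with ARNT), on either strand. TATAAA (the TATA box) and GGGCGG (the GC box) are marked in the same way. The windows are chr15:101412153-101412452 for Krt7, chr15:102004293-102004592 on the minus strand for Krt8, chr15:102027966-102028265 for Krt18 and chr17:87635729-87636028 for Epcam.
Krt7: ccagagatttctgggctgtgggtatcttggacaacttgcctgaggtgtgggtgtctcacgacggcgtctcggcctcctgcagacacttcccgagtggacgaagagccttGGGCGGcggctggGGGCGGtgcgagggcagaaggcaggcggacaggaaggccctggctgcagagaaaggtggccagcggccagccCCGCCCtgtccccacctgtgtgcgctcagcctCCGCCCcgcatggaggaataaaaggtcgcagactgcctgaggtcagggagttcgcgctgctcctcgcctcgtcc
Krt8: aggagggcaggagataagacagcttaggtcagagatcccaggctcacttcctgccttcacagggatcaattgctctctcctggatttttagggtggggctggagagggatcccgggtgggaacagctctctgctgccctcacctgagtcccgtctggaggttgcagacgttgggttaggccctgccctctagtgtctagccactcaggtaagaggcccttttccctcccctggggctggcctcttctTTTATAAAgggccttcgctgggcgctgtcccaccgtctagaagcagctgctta
Krt18: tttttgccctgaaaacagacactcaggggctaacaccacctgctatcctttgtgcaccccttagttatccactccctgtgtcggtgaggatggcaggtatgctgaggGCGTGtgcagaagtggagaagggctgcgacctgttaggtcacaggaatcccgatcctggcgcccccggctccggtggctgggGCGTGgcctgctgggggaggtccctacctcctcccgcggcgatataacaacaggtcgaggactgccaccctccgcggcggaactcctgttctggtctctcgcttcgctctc
Epcam: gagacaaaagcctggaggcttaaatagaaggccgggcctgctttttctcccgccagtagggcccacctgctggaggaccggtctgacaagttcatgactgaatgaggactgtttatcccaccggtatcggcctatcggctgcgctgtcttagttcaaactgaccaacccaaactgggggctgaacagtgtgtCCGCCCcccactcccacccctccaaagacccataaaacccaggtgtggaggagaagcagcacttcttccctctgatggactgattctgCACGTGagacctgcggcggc
Krt7 held 4 GC boxes and neither core. Krt8 held TATAAA on both strands, overlapping each other, and none of the other 3 motifs. Krt18 held GCGTG at positions −143 and −61 from the annotated start. Epcam held a palindromic CACGTG, which contains ACGTG on both strands, at 30 bases after the start, and 1 GC box. Over all 6 windows, GCGTG occurred in 2 (Krt18 and Cftr), against 32.4% of 32851 mouse promoter windows of the same length. ACGTG occurred in 1, against 19.6%, TATAAA in 2 (Krt8 and Muc1), against 13.6%, and GGGCGG in 4, against 35.7%. CCAAT occurred in 2 of the 6, against 37.4% of windows, GGAATG (the core of the TEAD factors) in 1, against 14.7%, and ACAAAG (a core of the SOX factors) in 1, against 18.7%. These are matches of letters and do not show binding, nor which factor would bind.

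Epcam, a cell adhesion protein of cholangiocytes and of progenitors but not of healthy adult hepatocytes, lies on chromosome 17 (87635979 to 87651127, plus strand). It was found at 2.54, 3.11 and 3.32 CPM in AHR KO, against 2.59, 3.28 and 2.36 CPM in AHR Flox. In ARNT KO it was found at 2.08, 3.56 and 12.2 CPM, against 2.68, 3.22 and 2.93 CPM in ARNT Flox. Replicates 1 and 2 of ARNT KO lay on either side of the ARNT Flox libraries, and replicate 3 was 3.42 times the next-highest library of the 12. Its log2 change was 0.12 ± 0.50 in AHR KO (edgeR adjusted p = 0.957). In ARNT KO it was 1.01 ± 0.49, the largest change among the tested members. Its unadjusted p was 0.0626 and its adjusted p was 0.843 by edgeR. Without replicate 3 that change was −0.06 ± 0.24 (edgeR adjusted p = 0.932), with a 95% interval of −0.58 to 0.46.

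Sox9, a transcription factor of duct cells and of hepatocytes next to the portal tract, lies on chromosome 11 (112782210 to 112787757, plus strand). It was found at 2.37, 3.85 and 3.89 CPM in AHR KO, against 4.39, 2.77 and 2.86 CPM in AHR Flox. Its values were 3.60, 3.30 and 9.79 CPM in ARNT KO, against 6.49, 4.07 and 3.73 CPM in ARNT Flox. Here ARNT Flox replicate 1 stood above the other control libraries too, and ARNT KO replicate 3 was 1.51 times its value. The log2 change was 0.01 ± 0.42 in AHR KO (edgeR adjusted p = 0.997) and 0.22 ± 0.40 in ARNT KO (adjusted p = 0.999), or −0.47 ± 0.29 without replicate 3 (adjusted p = 0.460).

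Cd24a, a surface glycoprotein used to sort duct and progenitor cells, lies on chromosome 10 (43579169 to 43584265, plus strand). It was found at 3.68, 4.34 and 4.26 CPM in AHR KO, against 3.47, 2.97 and 4.64 CPM in AHR Flox. ARNT KO livers held 3.10, 5.34 and 13.3 CPM, against 5.78, 3.66 and 3.39 CPM in ARNT Flox. The log2 change was 0.15 ± 0.44 in AHR KO (edgeR adjusted p = 0.932) and 0.76 ± 0.43 in ARNT KO (adjusted p = 0.888), or −0.02 ± 0.28 without replicate 3 (adjusted p = 0.978). CD24 is also made by immune cells, and 3.90% of the 50-base stretches of Cd24a occur in a copy, Gm6212, that the table does not hold.

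Muc1, a membrane mucin of the surface facing the duct lumen, lies on chromosome 3 (89229056 to 89233381, plus strand). It was found at 1.2, 0.712 and 1.51 CPM in AHR KO, against 0.817, 0.786 and 0.952 CPM in AHR Flox. Its values were 0.528, 1.81 and 3.79 CPM in ARNT KO, against 1.64, 1.19 and 0.838 CPM in ARNT Flox. ARNT KO thus held both the lowest and the 2 highest of the 12 values. The log2 change was 0.42 ± 0.58 in AHR KO (edgeR adjusted p = 0.834) and 0.73 ± 0.54 in ARNT KO (adjusted p = 0.948), or −0.08 ± 0.46 without replicate 3 (adjusted p = 0.954).

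Cftr, the chloride channel of the luminal membrane that drives ductal fluid secretion, lies on chromosome 6 (18170687 to 18322770, plus strand). It gave 5, 5 and 6 counts in AHR KO, against 4, 3 and 3 counts in AHR Flox. The other line gave 6, 3 and 44 counts in ARNT KO, against 12, 8 and 3 counts in ARNT Flox. The 44 counts correspond to 1.26 CPM (exact Poisson interval 0.918 to 1.70), and the other 11 libraries ran from 0.0953 to 0.357 CPM. Counting error alone gives a coefficient of variation of 43.5% among those 11, and 44.1% was measured. An antisense gene, Gm15592, overlaps exons of Cftr. In a fit without the filter its log2 change was 0.49 ± 0.94 in AHR KO (edgeR adjusted p = 0.925) and 1.03 ± 0.73 in ARNT KO (adjusted p = 0.951). The ARNT KO value rests on replicate 3, since the 6 and 3 counts of the other ARNT KO libraries lie within the 3 to 12 counts of ARNT Flox.

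**Figure D2:**
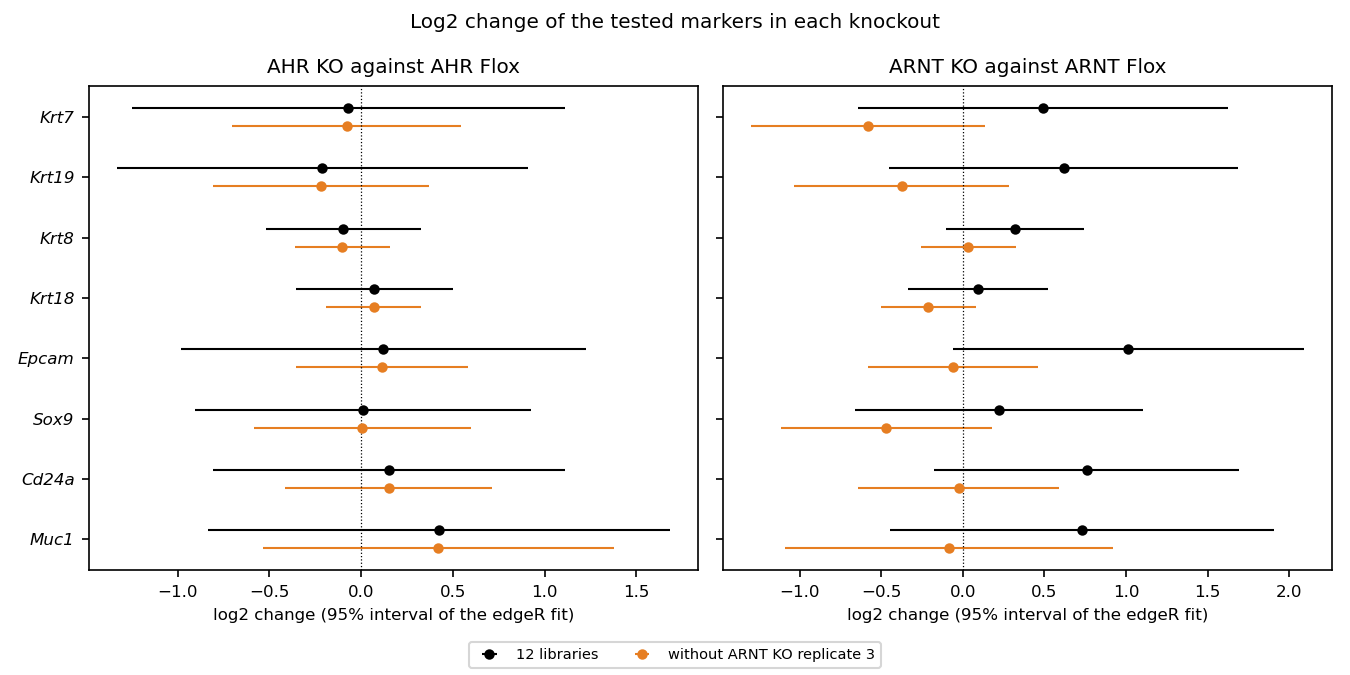
Log2 change of the 8 tested markers in AHR KO against AHR Flox (left) and ARNT KO against ARNT Flox (right), with the 95% interval of the edgeR fit, from all 12 libraries (black) and without ARNT KO replicate 3 (orange). Every interval includes 0, and in the right panel all orange points but that of Krt8 lie at or below 0, whereas all black points lie above it.

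In AHR KO, 0 of 8 tested members were called at an adjusted p under 0.05, against 0.0788% of all tested genes (11 of 13968). In ARNT KO, 0 of 8 were called, against 0.0573% of all tested genes (8 of 13968). No member had an unadjusted edgeR p under 0.05 in either comparison. DESeq2 gave 1 such member, Epcam in ARNT KO, with an adjusted p of 0.734, and limma-voom gave 0. The members' median log2 change was 0.04 in AHR KO, with 5 of 8 above 0, and 0.55 in ARNT KO, with 8 of 8 above 0, beside 0.01 over all tested genes in each. Without ARNT KO replicate 3, called genes made up 0.966% of 14073 tested in AHR KO and 1.37% in ARNT KO, and the members called stayed at 0. Their median in ARNT KO was then −0.15, with 1 of 8 above 0. In AHR KO that fit narrowed the standard errors, to 0.12 for both Krt8 and Krt18 and 0.21 for Epcam, and no member passed the test.

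The difference between the AHR KO and ARNT KO effects was negative for all 8 members, from −0.02 for Krt18 to −0.89 for Epcam, with a lowest edgeR adjusted p of 0.716 (Krt8). Among all tested genes, 0.043% were called in that comparison. Without ARNT KO replicate 3 the difference was positive for 7 of 8 members and the lowest adjusted p was 0.456 (Krt18). The control lines were compared with each other as well. Between ARNT Flox and AHR Flox 0 of 8 members were called, against 0.329% of tested genes, with the largest changes in Muc1 (0.54) and Sox9 (0.51) and a lowest adjusted p of 0.499. Same-numbered libraries of these 2 groups deviated together, and with the replicate number as a block 23 rather than 46 genes were called there, and again 0 members.

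The groups were also compared by overlap, and with 9 members the counts lie near the shares of all tested genes. In AHR KO, 1 of 9 members had all 3 libraries on one side of AHR Flox, namely Cftr with its 3 to 6 counts, and 21.2% of tested genes did so. In ARNT KO, 0 of 9 did, against 10.8% of tested genes. With replicate 3 left out, Krt18 and Sox9 lay below ARNT Flox in both remaining ARNT KO libraries, 2 of 9 beside 37.7% of tested genes. Between ARNT Flox and AHR Flox, 1 of 9 did not overlap, Krt18, beside 35.8%.

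ARNT KO replicate 3 was the highest of the 12 libraries for 9 of 9 members and for 23.4% of all tested genes. The other libraries were the highest for 0 members and for 3.29% to 11.8% of tested genes. Relative to the median of the other 11 libraries, Cftr stood at 7.81 times, Epcam at 4.15, Muc1 at 3.98, Cd24a at 3.62, Krt19 at 3.46, Krt7 at 3.24 and Sox9 at 2.63 times. Krt8 stood at 1.71 and Krt18 at 1.61 times. The median over all tested genes was 0.997 and that over the 8 tested members 3.35. At least 2-fold was reached by 6 of the 8 tested members, against 8.86% of tested genes. The members were not equally variable elsewhere: among the other 11 libraries the coefficient of variation was 9.64% for Krt8, 11.2% for Krt18 and 16.1% for Epcam, but 29.1% for Sox9 and 38.1% for Muc1, where counting error alone gives 9.37% and 17.4%.

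The library next to it differed between members. It was ARNT Flox replicate 1 for Krt7, Krt18, Sox9, Cftr and Cd24a, ARNT KO replicate 2 for Epcam and Muc1, AHR Flox replicate 1 for Krt19 and AHR Flox replicate 3 for Krt8. The lowest value fell in ARNT KO replicate 1 for Krt7, Krt19, Epcam and Muc1. Hence the lowest and the highest liver for these 4 markers carried the same genotype label, and the ARNT KO group had the largest SD of the 4 groups for each of the 9 members. Without replicate 3 its SD was the largest for 4 of 9 (Krt19, Epcam, Cd24a and Muc1), and for Krt18 it was 1.85 CPM in ARNT KO, beside 9.19 to 22.4 CPM in the other groups.

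Levels were compared between members per kilobase of exon. In the 11 libraries other than ARNT KO replicate 3, the median was 101 CPM per kilobase for Krt8 and 98.1 for Krt18, whose ranges overlapped almost fully (82.2 to 115 and 80.3 to 114). All others were below 2% of Krt8: Cd24a at 1.81, Epcam at 1.42, Sox9 at 0.902, Krt19 at 0.638, Muc1 at 0.425, Krt7 at 0.214 and Cftr at 0.0216 CPM per kilobase. The ranges of neighbours in that order overlapped from Cd24a down to Krt7, and only Krt18 and Cd24a, and Krt7 and Cftr, were separated. The order was the same in ARNT KO replicate 3, with 173 CPM per kilobase for Krt8, 158 for Krt18, 6.55 for Cd24a, 5.90 for Epcam, 2.37 for Sox9, 2.2 for Krt19, 1.69 for Muc1, 0.694 for Krt7 and 0.168 for Cftr. Exons of all transcripts of a gene were joined for its length, so a gene with an unused long exon, as may be the case for Krt7 at 4094 bases, is understated.

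Ratios of keratins within a library do not depend on how libraries are scaled. Per kilobase, Krt7 over Krt19 was 0.315 in ARNT KO replicate 3 and 0.229 to 0.416 in the other 11, with a median of 0.317. Krt18 over Krt19 was 71.5 in ARNT KO replicate 3 and 108 to 221 in the others, and Krt8 over Krt7 was 249 against 338 to 837. Both ratios of a shared to a duct keratin were thus lowest in ARNT KO replicate 3 of the 12 libraries. Epcam over Krt19 was 2.68 there and 1.38 to 2.53 in the others, and Epcam over Sox9 was 2.49 against 0.827 to 2.38.

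Krt8 over Krt18 separated the groups in both lines, in opposite directions. The ratio was 0.986, 0.983 and 0.969 in AHR KO, against 1.04, 1.11 and 1.16 in AHR Flox. It was 1.18, 1.06 and 1.10 in ARNT KO, against 0.922, 0.947 and 0.971 in ARNT Flox. Krt8 was thus lower relative to Krt18 in all AHR KO livers and higher in all ARNT KO livers than in the matching controls, and ARNT KO replicate 3 lay among its group mates. The log2 difference was −0.17 in AHR KO and 0.23 in ARNT KO, each with an exact two-sided permutation p of 0.10, the smallest that 3 against 3 libraries allow. The difference between both effects was −0.40, with an exact permutation p of 0.005 over 400 arrangements within the lines, the smallest they can give for this two-sided test, and 0.03 after Benjamini-Hochberg adjustment over the 6 ratios examined. The ratio was chosen after the values of the members had been seen, and the adjustment over 6 ratios does not cover that choice. The control lines differed from each other too, at a mean of 0.947 ± 0.0246 in ARNT Flox and 1.10 ± 0.0615 in AHR Flox (SD, n = 3 each). Among single tested genes, 21.2% did not overlap between groups in AHR KO and 10.8% in ARNT KO. The share among ratios of gene pairs was not computed. The counting error of Krt8 over Krt18 was 1.45% to 2.22%, and the stretch that Krt8 shares with Krt8-ps applies here too. In the edgeR fit, Krt8 and Krt18 each failed the test of the difference between effects.

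**Figure D3:**
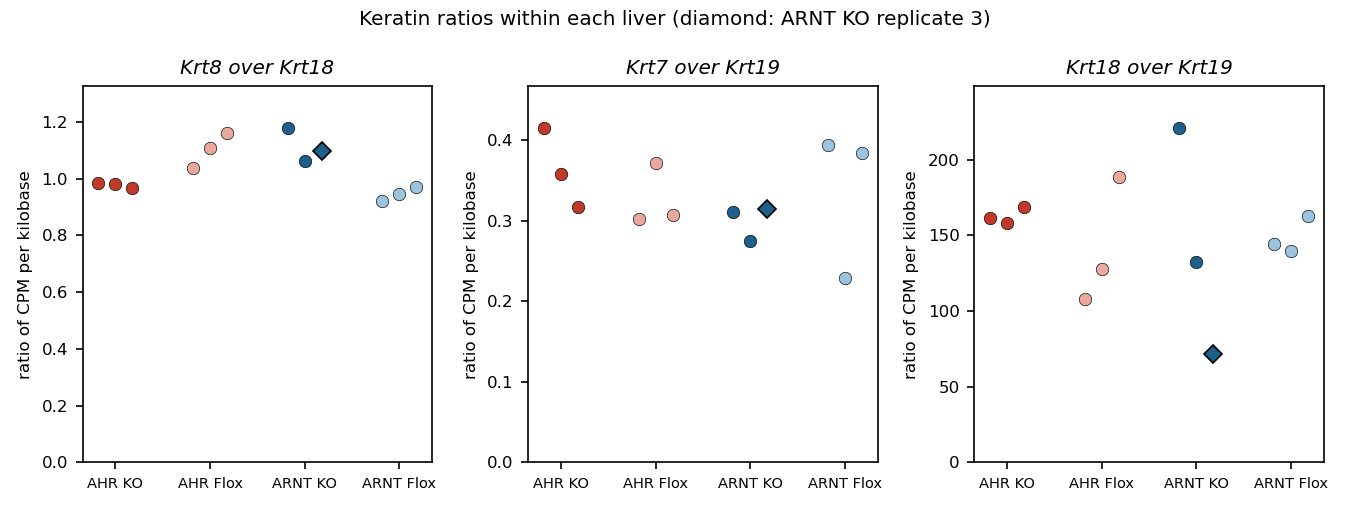
Ratio of CPM per kilobase between pairs of keratins in each library, by group, with ARNT KO replicate 3 as a diamond. Krt8 over Krt18 (left) does not overlap between knockout and control in either line, Krt7 over Krt19 (middle) overlaps in both, and Krt18 over Krt19 (right) has its lowest value, 71.5, in ARNT KO replicate 3.

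Other genes of the bile duct followed the same library. Of 18 further duct genes, 13 had their highest value in ARNT KO replicate 3, against 23.4% of all tested genes, and 16 were tested. None was called in AHR KO or ARNT KO; 1 had an unadjusted edgeR p under 0.05 in each, and the median log2 change was −0.03 in AHR KO and 0.30 in ARNT KO, or −0.15 in ARNT KO without replicate 3. St14, which encodes the protease matriptase, was at 8.13 CPM in ARNT KO replicate 3 and at 1.07 to 1.94 CPM elsewhere. Prom1, the progenitor and duct marker CD133, was at 15.4 CPM there, with 10.3 to 11 CPM in ARNT Flox and 1.67 to 6.37 CPM in the remaining libraries. Spp1, encoding osteopontin, was at 280.1 CPM there and at 38.9 to 100.3 CPM elsewhere, and Tspan8 was at 11.3 CPM and 0.590 to 2.41 CPM, both named after their values were seen. Not every duct gene did so: Krt23, a type I keratin, was at 8.93 CPM there beside a median of 15.3 CPM in the other 11.

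Wfdc2 had the smallest p of the duct list in both knockouts. It was found at 8.69, 7.28 and 7.05 CPM in AHR KO, against 20.6, 9.57 and 22.7 CPM in AHR Flox. In ARNT KO it was found at 19.8, 14.9 and 14.2 CPM, against 8.93, 8.89 and 8.63 CPM in ARNT Flox. The libraries of each pair did not overlap, which held for 21.2% of tested genes in AHR KO and 10.8% in ARNT KO. The ARNT Flox and AHR Flox libraries did not overlap each other either, as for 35.8% of tested genes. Wfdc2 was lower in AHR KO and higher in ARNT KO than in the matching control, and replicate 3 of ARNT KO did not stand out. The log2 change was −1.20 ± 0.26 in AHR KO (edgeR adjusted p = 0.101) and 0.88 ± 0.26 in ARNT KO (adjusted p = 0.569), so neither passed.

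Of 15 genes of progenitors and of the ductular reaction, 11 were tested. Of these, 1 was called, in AHR KO, where 0.0788% of all tested genes were called. Afp, the fetal albumin relative that progenitors can express, fell in AHR KO with 1.11, 1.10 and 0.941 CPM, against 5.01, 4.78 and 5.26 CPM in AHR Flox (log2 change −2.25 ± 0.29, edgeR adjusted p = 0.0168). Alb, of the hepatocyte list, was lower in AHR KO too (log2 change −3.74 ± 0.66), without passing (edgeR adjusted p = 0.0629). Whether the falls of Afp and Alb are linked was not tested. The median of the progenitor list was −0.06 in AHR KO and −0.07 in ARNT KO. It was −0.39 in ARNT KO without replicate 3, where again none was called. Beside 23.4% of all tested genes, 8 of these 15 were highest in ARNT KO replicate 3. Among those, Tnfrsf12a, the receptor through which the cytokine TWEAK acts on progenitors, was at 16.1 CPM there beside 3.69 to 7.2 CPM elsewhere. Its ligand gene Tnfsf12 had the smallest p of the list in ARNT KO (log2 change −0.44 ± 0.17, edgeR adjusted p = 0.744). Lgr5 was at 6.26 CPM in that library, below the 9.91 to 18 CPM of the others.

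No gene of 2 pathways that govern duct fate, or of the junctions to which keratins attach, was called in either knockout. None of 17 tested Notch pathway genes was called (median log2 change 0.00 in AHR KO and 0.06 in ARNT KO, or −0.12 in ARNT KO without replicate 3), and Notch2, the receptor needed for duct formation, changed by −0.19 ± 0.08 in AHR KO (edgeR adjusted p = 0.342) and 0.11 ± 0.08 in ARNT KO (adjusted p = 0.934). Of 21 Hippo-YAP genes none was called. Mob1b, an activator of the LATS kinases, was at −0.44 ± 0.10 (edgeR adjusted p = 0.113) and the coactivator Yap1 at −0.18 ± 0.06 (adjusted p = 0.269) in AHR KO. Of 14 junction genes none was called either, with Dsp, encoding desmoplakin, at −0.34 ± 0.12 in AHR KO (edgeR adjusted p = 0.266). In ARNT KO replicate 3, 8 of 18 Notch genes, 6 of 21 Hippo-YAP genes and 4 of 14 junction genes were highest of the 12 libraries. The share was 23.4% over all tested genes, and 9 of 9 for the markers.

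Some lists of other cell types and states were also high in ARNT KO replicate 3, and others were not. Over all tested genes, 23.4% were highest in that library, the share to set beside the counts below. Of 20 cell cycle genes, 18 were highest there, and their summed level was 215 CPM, against 118 and 93.2 CPM in the other ARNT KO libraries and 77.3 to 84.2 CPM in ARNT Flox. The libraries of the other line lay between 64.2 and 103 CPM. Of 11 macrophage markers 9 were highest there, with a sum of 779 CPM, against 471 and 500.2 CPM in the other ARNT KO libraries and 565 to 583 CPM in ARNT Flox. Of 15 stellate and portal fibroblast markers 8 were highest, with a sum of 672 CPM, against 339 and 463 CPM in the other ARNT KO libraries and 439 to 540.2 CPM in ARNT Flox. Of 10 endothelial markers 4 were highest there, with a sum of 362 CPM, against 317 and 356 CPM in the other ARNT KO libraries and 330 to 383 CPM in ARNT Flox. B and T lymphocyte markers summed to 19.4 CPM there, against 15.6 to 21.1 CPM in ARNT Flox, neutrophil markers to 10.8 CPM, against 8.13 to 11.6 CPM, and erythroid markers to 19.9 CPM, against 19.6 to 26.0 CPM, so these 4 lists stayed below the highest ARNT Flox library. Of the 8 erythroid markers, the 4 globin genes were at 0 in all libraries, and Alas2 alone held 19.2 CPM in ARNT KO replicate 3. The summed level of the markers themselves was 612 CPM there, against 353 and 344 CPM in the other ARNT KO libraries and 353 to 391 CPM in ARNT Flox. Of 12 hepatocyte markers 0 were highest there, and the median of the 11 tested was 0.802 times that of the other libraries. Their sum was 53429.6 CPM there, against 114357 and 113477 CPM in the other ARNT KO libraries and 125371 to 147258 CPM in ARNT Flox. Alb, which encodes albumin and is on that list, was at 51926, 53684.8 and 5740 CPM in ARNT KO, against 69704 to 87894 CPM in ARNT Flox. It was at 5491 to 7089 CPM in AHR KO, against 78433 to 89274.5 CPM in AHR Flox (log2 change −3.74 ± 0.66, edgeR adjusted p = 0.0629). Most of the gap in the hepatocyte sum was Alb: the other 11 genes summed to 47689 CPM in ARNT KO replicate 3, against 62431 and 59792 CPM in the other ARNT KO libraries and 55121 to 59364 CPM in ARNT Flox. The part of these cell types in the marker levels was not tested.

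**Figure D4:**
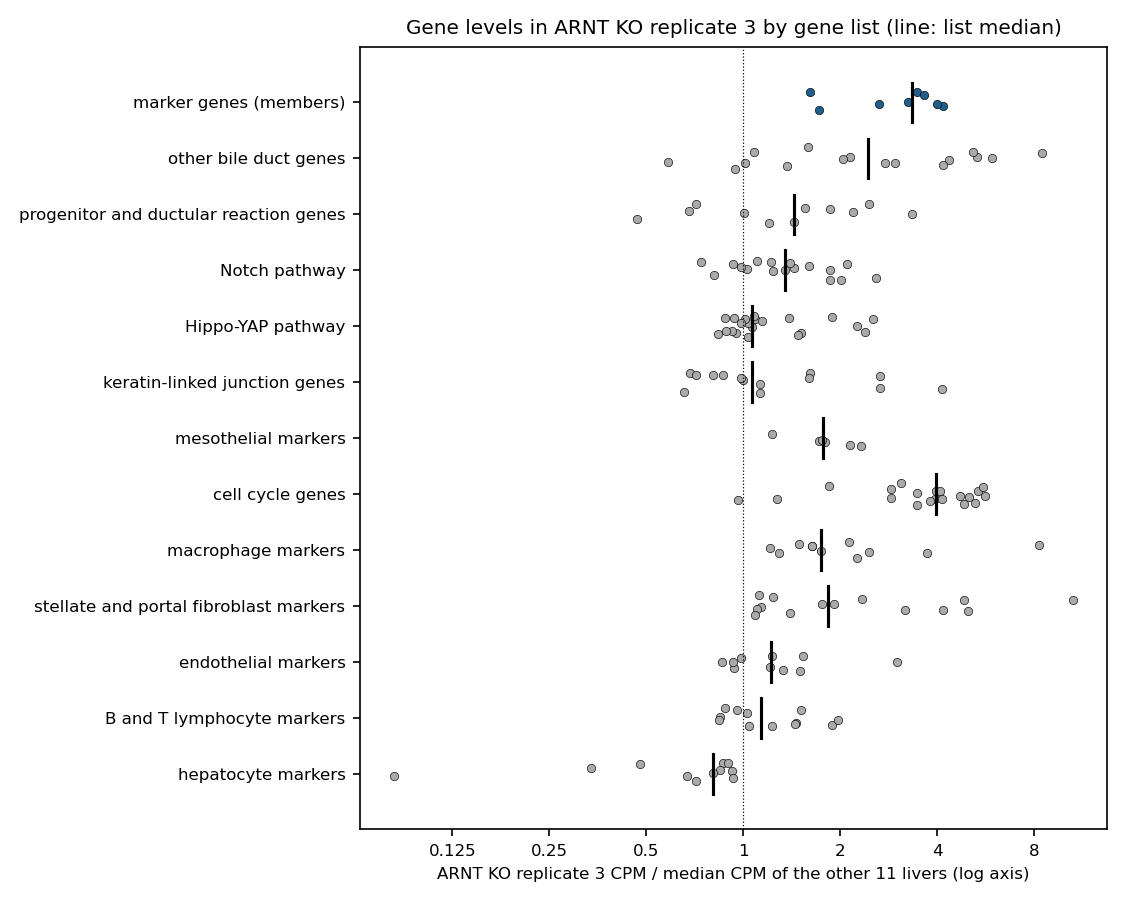
CPM in ARNT KO replicate 3 divided by the median of the other 11 libraries (log axis) for each tested gene of each list, with the list median as a line. The tested markers lie between 1.61 and 4.15, cell cycle genes have a median of 3.95, and hepatocyte markers one of 0.802.

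**Figure D5:**
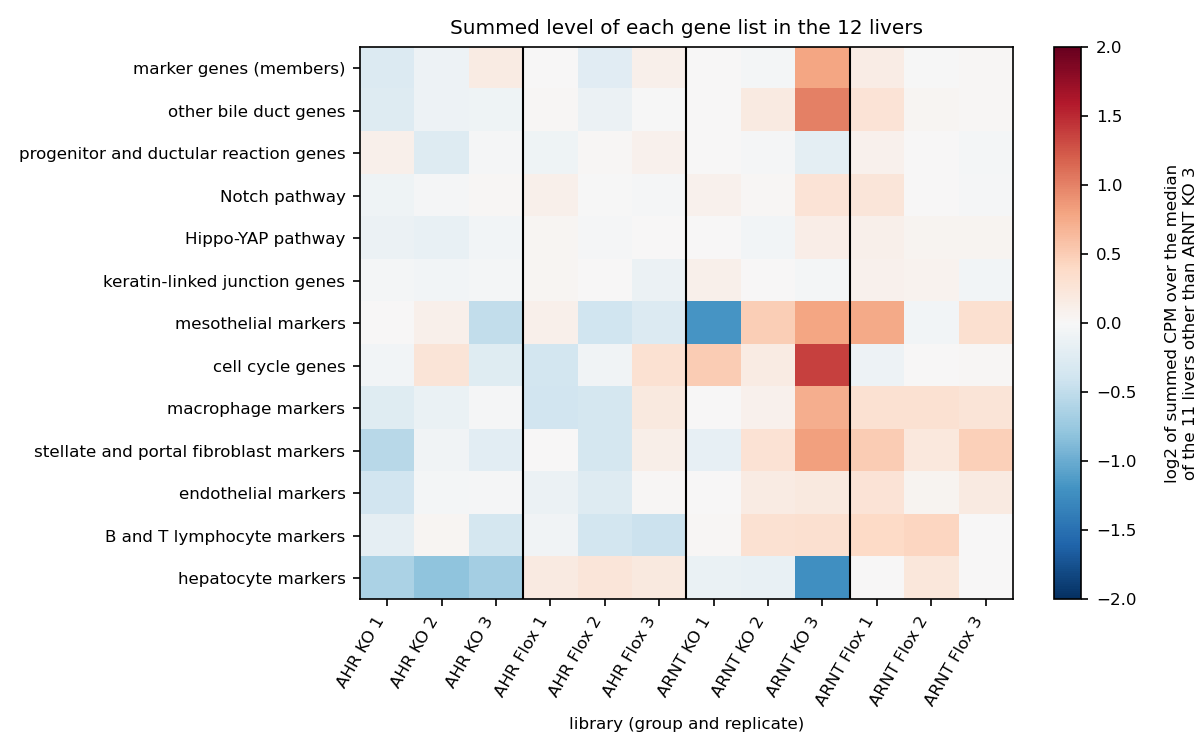
Summed CPM of each list in each library, as log2 over the median of the 11 libraries other than ARNT KO replicate 3 (red, higher; blue, lower). Duct genes, cell cycle genes, macrophage and fibroblast markers are all high in ARNT KO replicate 3, endothelial and lymphocyte markers stay below the highest ARNT Flox library, and the members' sum, which Krt8 and Krt18 dominate, stays within 292 to 395 CPM in the other 11.

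Tissues outside the liver lobule that carry the same keratins were looked for. Mesothelium, which covers the liver, expresses Krt7, Krt8, Krt18 and Krt19 as well. Its 7 markers summed to 2.54, 8.10 and 10.1 CPM in ARNT KO, against 5.57 to 9.82 CPM in ARNT Flox, and 4.14 to 6.18 CPM in AHR KO, against 4.37 to 6.23 CPM in AHR Flox. Krt14, one of them, was at 0 in every library, and 2 of 7 were highest in ARNT KO replicate 3, beside 23.4% of all tested genes. The part of mesothelium was not tested beyond these values. Of 12 pancreas markers 5 were at 0 in all libraries, and the sum was 0.861 CPM in ARNT KO replicate 3 and 0.414 to 1.26 CPM elsewhere. The intestinal transcription factors Cdx1 and Cdx2 were at 0 in all libraries. Tff3, a secreted peptide of mucous epithelia on the intestinal list, was at 46.7 CPM in ARNT KO replicate 3 and at 0.0414 to 1.85 CPM in the other 11. Vil1 was highest there too, whereas Fabp2 (91.9 CPM) and Lgals4 (2.21 CPM) of the same list were at their lowest of the 12 libraries. The intestinal sum of 142 CPM lay within the range of the other libraries, of which the highest was at 205 CPM in AHR Flox.

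Likeness of pattern was measured by Pearson's r of log2 CPM over 12251 genes at a mean of at least 1 CPM. Over 12 libraries the most alike were Lamc3 (0.931) for Krt7, Mtap1s (0.941) for Krt19, Whsc1 (0.965) for Krt8, Fkbp1a (0.969) for Krt18, Cdc42se1 (0.942) for Epcam, Mical1 (0.950) for Sox9, Pygb (0.946) for Cd24a and Sema5a (0.926) for Muc1. All these values share ARNT KO replicate 3. Over the 11 other libraries the most alike were Smo (0.906), Ankrd27 (0.911), Pikfyve (0.962), Adamts15 (0.925), Lrrc47 (0.937), Mical1 (0.919), Btbd11 (0.858) and Utp14a (0.907) for the same members in the same order, so only Sox9 kept its closest gene. Among the members, each one's best partner reached r = 0.882 to 0.921 over 12 libraries and 0.517 to 0.765 over 11. Krt7 and Krt19 had 0.921 over 12 and 0.721 over 11. Krt8 with Krt18 had 0.899 and 0.699, and Krt8 with Epcam was negative over 11, at −0.275. These are descriptions over few libraries that share groups and depth.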

How the data were processed

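The series holds 12 liver libraries, 3 per group, grouped by the genotype in the labels. The authors deposited 1 table of raw counts per gene symbol. Per the labels' protocols, RNA was extracted with Trizol and poly-A libraries were made with NEBNext Ultra II. Per the submitters' processing notes, the tools were STAR (2.5.4b, 2.6.0c), bcl2fastq 2.20, DESeq2 1.20.0 and R 3.5.1, and the genome build was mm10. Counting tool, strand setting and annotation were stated neither there nor in the labels. Because reads carry no molecular identifiers, depth covers counting error only.

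The counts were analysed with edgeR 4.0.16 in R 4.3.3: TMM scaling, filterByExpr (minimum count 10, minimum total 15), which kept 13968 genes with 99.98% of reads, and a single quasi-likelihood fit in which each of the 4 groups had its own mean. P-values are two-sided and adjusted by Benjamini-Hochberg over all genes tested, and genes were called at an adjusted p under 0.05. The common biological variation was 17.5% (coefficient of variation). Log2 CPM used a prior count of 2. Chi-square per degree of freedom between libraries of a group ran from 17.0 to 248, so none was a duplicate. Whether p-values reach beyond these mice was not examined. On simulated counts for the AHR contrast over 13968 genes, 83% of 2-fold and 100% of 4-fold changes were recovered, with 8 false calls. These shares are over the genes given a change in the simulation and were not computed for the markers. In AHR KO the interval of the log2 change of Krt7, −1.25 to 1.11, included a 2-fold change in either direction. The 83% is therefore not the chance of calling such a change in each marker.

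The members, the gene lists and the contrasts were chosen with earlier results of these data known. All members are named. From every other list the 2 genes with the smallest p in each knockout could be named, and other genes of the lists, among them Spp1, Tspan8, Krt23, Tnfrsf12a, Tff3, Vil1, Fabp2 and Lgals4 in single libraries, Alb and Krt14, were named after their values were seen. The likeness rule took the closest genes by Pearson's r. Gene positions, exon lengths and 50-base matches come from GENCODE M21 on GRCm38, the assembly of mm10, matched by symbol for 9 of 9 members, and promoters from RefSeq.

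Alternatives changed the scaling (upper quartile, DESeq2 size factors, or TMM computed after leaving out the 50 most abundant genes), the filter (none, or 1 CPM in 3 libraries), the tool (limma-voom from limma 3.58.1, or DESeq2 1.42.0) and the fit (a contrast's own groups only, a block for replicate number, or 1 library left out at a time). Library totals alone, limma-voom with sample quality weights and the ratios of members, tested by exact permutation, were added after seeing the data. The labels pair no samples. Residuals of same-numbered libraries correlated at 0.327, 0.153 and 0.101 between ARNT Flox and AHR Flox, and the count with the block stands beside that comparison.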

Additional observations from a re-analysis of the deposited data

Results flagged for a closer look

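The ratio of Krt8 to Krt18 per kilobase moved in opposite directions in the 2 knockouts, with every library of each knockout on one side of its control. It averaged 0.979 ± 0.00936 in AHR KO and 1.10 ± 0.0615 in AHR Flox, and 1.11 ± 0.0601 in ARNT KO and 0.947 ± 0.0246 in ARNT Flox (SD, n = 3 each). The AHR KO effect minus the ARNT KO effect on the log2 ratio was −0.400515 (exact permutation p = 0.005, adjusted over 6 ratios p = 0.03). Leaving out each library in turn moved it between −0.443 and −0.358, with exact p-values of 0.005 to 0.01. Leaving out a library cannot undo a full separation of the groups, so these p-values are not independent support. With all libraries, 0.005 was the smallest p that the permutation test can give. Krt8 and Krt18 did not pass the edgeR test of this difference by themselves (adjusted p = 0.716 and 0.994). The ratio was picked after the values were seen, a choice that the adjustment over 6 ratios does not cover. The part of Krt8-ps reads in it was not tested. Among single tested genes, 21.2% did not overlap between groups in AHR KO and 10.8% in ARNT KO. The share among ratios of gene pairs was not computed.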

How the results depend on the processing

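The number of members called was 0 in every comparison under every alternative run, with a lowest adjusted p over alternatives of 0.570 in AHR KO, 0.401 in ARNT KO, 0.456 for the difference between effects and 0.176 between ARNT Flox and AHR Flox. Of 728 recomputed log2 changes of members, 49 changed sign, none of them past the threshold in either setting, and the other 679 kept sign and side. Among the members, Cftr had the fewest counts.

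The number of genes called depended on the tool. In AHR KO it was 28 without a filter, 19 with the 1 CPM filter, 359 with DESeq2 and 82 with limma-voom and quality weights, against 11. In ARNT KO it was 56 with DESeq2, 5 with limma-voom, 3 with the replicate block, 1 with only the groups of the contrast, 4 with library totals alone and 422 with quality weights, against 8. For the difference it was 148 with DESeq2 and 238 with quality weights, against 6. Between ARNT Flox and AHR Flox it was 572 with DESeq2, 23 with the replicate block, 1615 with only those groups and 2395 with quality weights, against 46. Leaving out 1 library gave 5 to 136 in AHR KO, 1 to 193 in ARNT KO, 1 to 194 for the difference and 12 to 1532 between the Flox groups; the highest in AHR KO and ARNT KO came without ARNT KO replicate 3. The block changed no call of a member. Residuals of same-numbered libraries also correlated at 0.038, 0.114 and 0.247 between AHR Flox and ARNT KO. Over the remaining pairs of groups they ran from −0.131 to 0.164. What same-numbered libraries share was not tested.

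With quality weights the log2 change turned to −0.0491 for Sox9 in AHR KO. In ARNT KO it turned to −0.0956 for Krt7, −0.0928 for Krt19, −0.1395 for Krt18 and −0.2858 for Sox9. For the difference it turned to 0.0273 for Krt7, 0.1808 for Krt18 and 0.2367 for Sox9, and between the Flox groups to −0.1293 for Krt7. For the difference in Krt18 it was 0.022 with limma-voom and 0.0147 with the replicate block. For Krt8 between the Flox groups it was 0.0235 with upper quartile scaling, 0.0077 with the replicate block and 0.0898 with library totals. The cause was not tested.

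Leaving out 1 library turned signs as follows. In AHR KO, Krt7 ran from −0.253 to 0.0978, Krt19 from −0.3714 to 0.035, Krt18 from −0.0656 to 0.1647 and Sox9 from −0.1187 to 0.2543. In ARNT KO, Krt7 ran from −0.5819 to 0.8812, Krt19 from −0.3728 to 1.0104, Krt18 from −0.2101 to 0.2298, Epcam from −0.0608 to 1.4211, Sox9 from −0.4678 to 0.5142, Cd24a from −0.0249 to 1.1224 and Muc1 from −0.0842 to 1.1839, each lowest without ARNT KO replicate 3. For the difference, Krt7 ran from −0.9595 to 0.5036, Krt19 from −1.2302 to 0.1538, Krt18 from −0.1655 to 0.2775, Epcam from −1.3078 to 0.1762, Sox9 from −0.5027 to 0.473, Cd24a from −0.978 to 0.1738 and Muc1 from −0.7676 to 0.5054. Between the Flox groups, Krt7 ran from −0.1316 to 0.3128, Krt19 from −0.0891 to 0.3173, Krt8 from −0.1042 to 0.0838 and Cd24a from −0.0615 to 0.4077.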
